A study of Mus musculus with 11 samples.

Results

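The 45 genes described here build, modify or bind the extracellular matrix, or mark fibroblasts and related stromal cells. They were chosen by symbol as a module of matrix and fibroblast genes, and 36 of the 45 had a row among the 14604 genes of the mouse table analysed here. In that experiment, regulatory T cells (Tregs) were sorted from MC38 tumors, tumor-infiltrating (TI) Tregs, and from the spleens of the same tumor-bearing mice. MC38 cells come from a mouse colon adenocarcinoma and grow as a graft. RNA was depleted of ribosomal RNA and sequenced in 11 libraries, 5 of TI-Tregs and 6 of spleen Tregs, and the comparison asked which genes are regulated differently in TI-Tregs. The wild-type (WT) group, with 3 spleen and 3 tumor libraries, carried the genotype CD177flox/flox. The knockout (KO) group, with 3 spleen and 2 tumor libraries, carried CD177flox/flox/FOXP3-CreYFP, in which the Foxp3 promoter drives Cre and YFP, so that floxed CD177 is deleted in cells that express Foxp3. All groups thus carried the floxed allele and all mice bore an MC38 implant, while the WT group carried no Cre. Cd177 itself was not analysed here, so its level was not used to check the genotype labels. The methods of the study give an age at implantation of 6 to 8 weeks for C57BL/6 hosts of MC38 and do not say whether it holds for these genotypes, nor do they give the purity of the sort. Live CD4+ CD25+ GITR+ cells were gated after staining for CD45 and CD3 as well.

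The matrix between cells is a network of collagen fibrils, basement membrane sheets, adhesive glycoproteins and proteoglycans. Fibroblasts make most of the fibrillar collagen, and they depend on chaperones, hydroxylases and lysyl oxidases to fold, trim and crosslink it. Metalloproteinases cleave these proteins and TIMP proteins inhibit the metalloproteinases. T cells are not known as a main source of fibrillar collagen.

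Each value is the deposited log2(n + 1), where n is the estimated count of a gene summed over its transcripts by the authors, on a scale that is not stated. Since it is not known whether n is already divided by length, levels are mainly compared between libraries within a gene. Where n is summed over genes, or levels of different genes are set side by side, the values hold on this unstated scale only. Taken back to n, the library totals lay between 712832 and 844331 in spleen and between 1103159 and 1304548 in tumor, and the depth in reads is unknown. A single gene, Gm12896, held 31.4% to 42.5% of n in each library. The table lists only genes above 0 in every library, 14604 of 14604, so the members with a row were selected for a trace of signal in spleen as well. Col5a2, Col6a1, Col12a1, Lama4, Eln, Thbs2, Dcn, Lum and Pdgfra had no row in the values used here and were not analysed. All 36 members with a row passed the minimum mean level of 0.5 on the log2(n + 1) scale and were tested, but 14 of them had a spleen mean under 0.5 and passed only through the tumor libraries. The count of members called with genotypes pooled is given with and without these 14, and the other counts over the members include them.

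The upstream sequences of 3 members are shown because they belong to those with the largest tumor-spleen differences whose window overlaps no annotated exon in GENCODE release M21. They were taken from RefSeq on GRCm38.p6, read 5′ to 3′, and each ends at the last base before the RefSeq start of the gene. Of the 36 members with a row, 26 had such an entry, and Col1a1, Lamc1, Fn1, Thbs1, Lox, Loxl2, Mmp2, Fap, Pdgfrb and Tagln had none. Capitals mark a TATA box (TATAAA), the letters CCAAT, a GC box (letters GGGCGG), each searched on both strands, or a CArG box, the site of serum response factor, with at most 1 mismatch in its A/T core. The Col3a1 window lies at chr1:45311288-45311537 on the plus strand, the Bgn window at chrX:73483351-73483600 on the plus strand and the Mmp14 window at chr14:54431348-54431597 on the plus strand.
Col3a1: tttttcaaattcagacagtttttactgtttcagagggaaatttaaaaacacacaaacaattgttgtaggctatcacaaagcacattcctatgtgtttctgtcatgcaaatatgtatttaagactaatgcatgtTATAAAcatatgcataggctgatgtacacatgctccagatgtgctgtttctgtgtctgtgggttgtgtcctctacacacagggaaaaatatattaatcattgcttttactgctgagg
Bgn: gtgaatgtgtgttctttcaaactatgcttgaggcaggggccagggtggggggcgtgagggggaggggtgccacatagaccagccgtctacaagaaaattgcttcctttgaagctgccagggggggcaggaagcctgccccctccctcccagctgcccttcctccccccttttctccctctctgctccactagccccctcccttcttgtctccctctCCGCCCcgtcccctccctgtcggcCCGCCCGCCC
Mmp14: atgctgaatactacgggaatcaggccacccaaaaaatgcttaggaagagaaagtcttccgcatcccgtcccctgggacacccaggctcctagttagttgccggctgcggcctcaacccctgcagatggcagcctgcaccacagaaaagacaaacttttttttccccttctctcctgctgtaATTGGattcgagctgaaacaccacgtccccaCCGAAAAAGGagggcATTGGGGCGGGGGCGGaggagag
Col3a1 has TATAAA at position -117, counted from the start. Bgn has GGGCGG in reverse at -34, -10 and -6. In Mmp14, CCAAT lies in reverse at -69 and -23 and GGGCGG at -19 and -13, with a CArG box at -38, and the CCAAT match at -23 shares 1 base with the GGGCGG match at -19. Among the 31 windows of the 26 members, GGGCGG occurred in 21 (67.7%) against 32.7% of all 32851 RefSeq windows of this length. TATAAA occurred in 4 (12.9% against 12.4%), CCAAT in 9 (29% against 33.8%), the CArG box in 6 (19.4% against 8.59%), and the AP-1 letters TGANTCA in 0 (against 6.75%). A match describes letters in a window and not a site in use.

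Nearly every member with a row was higher in TI-Treg libraries than in spleen Treg libraries. Of 36 tested, 33 rose, 1 fell (Acta2) and 2 did not pass the threshold (Fap and Tagln), by limma with Benjamini-Hochberg adjustment over all 13897 genes tested and an adjusted p below 0.05. The median difference of the members was 3.97 on the log2(n + 1) scale, against 0.08 for all genes tested. The called share was 94.4% of the members against 78.9% of all genes, where 43.1% were higher and 35.9% were lower. Since 14 members were tested only because they are high in tumor, that share is no support for the group. Of the other 22 members, 19 rose and 1 fell (90.9%), with a median difference of 2.92. Each of the 5 tumor libraries was above each of the 6 spleen libraries for 32 members, against 35.2% of all genes tested, and the other 4 were Fap, Timp3, Acta2 and Tagln. The 32 include the 14 members tested only through tumor, so this count is no support for the group either. The + 1 shrinks differences of genes that are near 0 in 1 tissue. In sorted bulk samples, fewer cells of a type and less RNA per cell cannot be told apart, so these values describe the samples as sequenced. The labels do not say that each library came from a separate animal, and the p-values measure the spread between these libraries, which may be technical.

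Summed over the 36 members, n was between 107 and 116 in the spleen libraries and between 2399 and 5353 in the tumor libraries. As a share of all n in a library, this was 0.0135% to 0.0158% in spleen and 0.203% to 0.485% in tumor. The median difference over all genes depends on the scaling, from 0.08 as deposited to -0.44 with equal library totals, -0.14 with median centring and -0.16 with quantile normalization. With these scalings the median of the members was 3.52, 3.75 and 3.74, and 33 members passed as higher under each. Of all 13897 genes tested, 3286, 4831 and 4626 passed as higher under the same scalings. The 33 include the 14 members tested only through tumor, so this count is no support for the group.

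**Figure D1:**
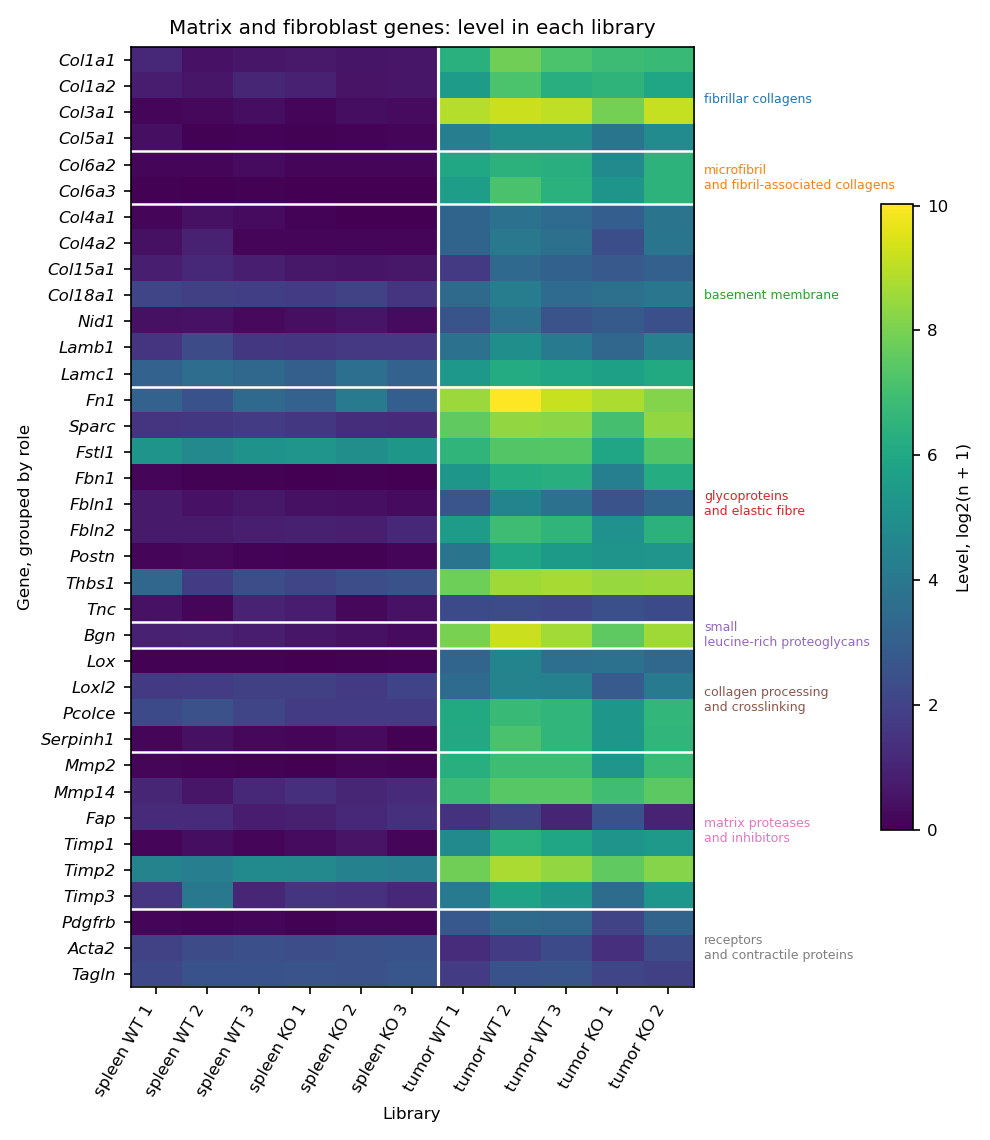
Level of each of the 36 members with a row in each of the 11 libraries, as deposited log2(n + 1) on a color scale from 0 to 10.02, with genes in rows by role and libraries in columns. The 6 spleen columns are dark for most collagens while the 5 tumor columns are light, and Acta2, Tagln and Fap change color little between tissues.

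The fibrillar collagens, which form the tensile fibrils of connective tissue, rose in 4 of 4 members tested. Over all genes tested, 43.1% were higher. Col3a1 and Col5a1 were tested only through tumor, so this count is no support for the group. The same holds for the count of each role below that includes such members. Col3a1, the chain of type III collagen, was between 0.18 and 0.38 (median 0.26) across the 6 spleen libraries, and 8.89, 9.21 and 9.04 in tumor WT and 7.93 and 9.13 in tumor KO libraries. Thus spleen libraries were near 0, and tumor KO replicate 1 stood below the other 4 tumor libraries. Tumor exceeded spleen by 8.57 (standard error 0.19, limma adjusted p = 3.46e-12), and in the exact two-sided permutation test over all splits into 6 and 5 libraries p was 0.0043, the smallest this design allows. Of the 36 members, 32 reached that smallest p. They are the 32 whose tumor libraries were all above all spleen libraries, as were those of 35.2% of all genes tested. They include the 14 tested only through tumor, so this count is no support for the group. Col1a1, the alpha 1 chain of type I collagen, was between 0.49 and 1.11 (median 0.61) across the 6 spleen libraries, and 6.35, 7.86 and 7.18 in tumor WT and 6.88 and 6.75 in tumor KO libraries. Its partner chain Col1a2 was between 0.55 and 1.06 (median 0.70) across the 6 spleen libraries, and 5.55, 7.20 and 6.30 in tumor WT and 6.52 and 5.89 in tumor KO libraries. Both chains were lowest in tumor WT replicate 1 and highest in tumor WT replicate 2 among the tumor libraries, and neither overlapped between tissues. The differences were 6.33 (standard error 0.22) for Col1a1 and 5.54 (standard error 0.24) for Col1a2. Col5a1, a type V chain that regulates fibril diameter, was between 0.076 and 0.42 (median 0.090) across the 6 spleen libraries, and 4.30, 4.93 and 4.94 in tumor WT and 3.90 and 4.82 in tumor KO libraries, a difference of 4.43. Its spleen values were at a trace in 5 libraries and higher in spleen WT replicate 1. An exon of Col3a1 overlaps Gm47302 on the same strand in GENCODE, so some of its reads could be shared, and Col5a2, the partner of Col5a1, had no row.

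Col6a2 and Col6a3, chains of the beaded microfibrils of type VI collagen, both rose, and both were tested only through tumor. Col6a2 was between 0.17 and 0.28 (median 0.18) across the 6 spleen libraries, and 6.0, 6.43 and 6.33 in tumor WT and 4.80 and 6.47 in tumor KO libraries. Col6a3 was between 0.013 and 0.075 (median 0.027) across the 6 spleen libraries, and 5.58, 7.13 and 6.40 in tumor WT and 5.20 and 6.49 in tumor KO libraries. Both chains were lowest in tumor KO replicate 1, and Col6a3 was highest in tumor WT replicate 2. Their differences were 5.81 (standard error 0.25, adjusted p = 4.32e-10) and 6.12 (standard error 0.27, adjusted p = 6.06e-10, limma). The remaining chain, Col6a1, had no row, nor did Col12a1, a collagen on the surface of fibrils.

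**Figure D2:**
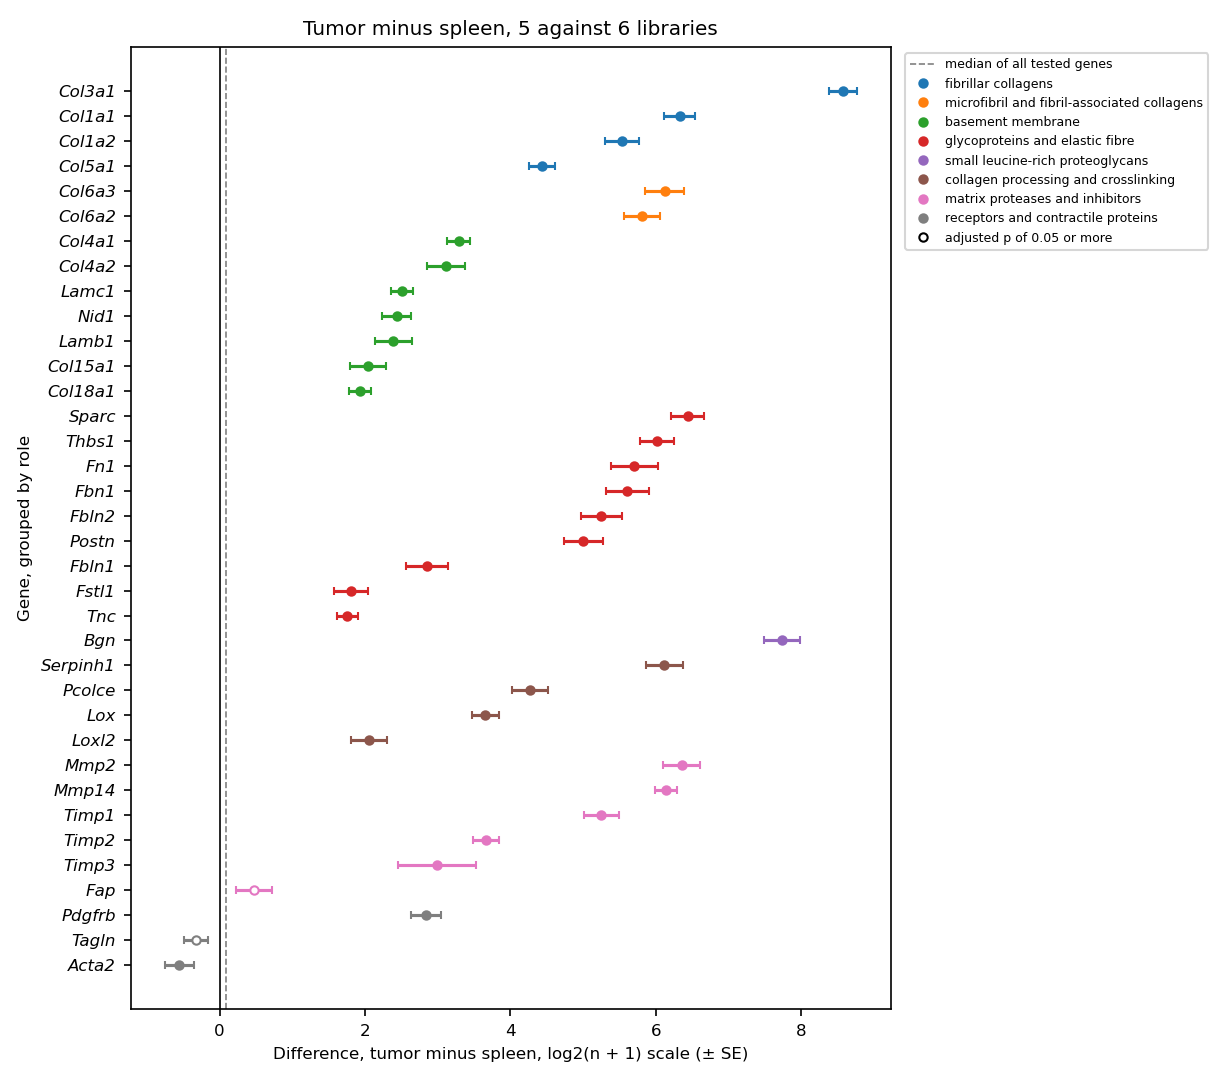
Difference between the mean of 5 tumor and the mean of 6 spleen libraries for each of the 36 members, on the log2(n + 1) scale with its standard error from limma, colored by role, where the dashed line is the median of all genes tested and open circles did not pass an adjusted p of 0.05. The members spread from -0.55 for Acta2 to 8.57 for Col3a1, and basement membrane genes lie between 1.93 and 3.29.

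Basement membrane genes, whose products form the sheets under epithelium and endothelium, rose in 7 of 7 members tested, by 1.93 to 3.29 with a median of 2.44. Of these, Col4a1, Col4a2 and Nid1 were tested only through tumor, and 43.1% of all genes tested were higher. Col4a1, a core chain of type IV collagen, was between 0.027 and 0.45 (median 0.13) across the 6 spleen libraries, and 3.23, 3.75 and 3.51 in tumor WT and 2.99 and 3.87 in tumor KO libraries. Its partner Col4a2 was between 0.13 and 0.91 (median 0.18) across the 6 spleen libraries, and 3.23, 3.99 and 3.69 in tumor WT and 2.41 and 3.91 in tumor KO libraries. The tissues did not overlap for either chain, and both were lowest in tumor KO replicate 1. Their differences were 3.29 and 3.12 (standard errors 0.16 and 0.26). The 2 genes lie head to head on chromosome 8 of GRCm38, Col4a1 from 11198423 to 11312826 on the minus strand and Col4a2 from 11312805 to 11449287 on the plus strand, so that their annotated 5′ ends overlap. It is not stated whether the library kit kept the strand.

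Lamc1, the laminin gamma 1 chain, was between 3.02 and 3.65 (median 3.27) across the 6 spleen libraries, and 5.35, 6.16 and 5.88 in tumor WT and 5.69 and 6.08 in tumor KO libraries. It had a clear level in each spleen library. It rose by 2.51 (standard error 0.16, adjusted p = 1.11e-08, limma). Lamb1, the beta 1 chain with which it assembles, was between 1.53 and 2.35 (median 1.64) across the 6 spleen libraries, and 3.77, 5.0 and 4.17 in tumor WT and 3.31 and 4.35 in tumor KO libraries, a difference of 2.39. Spleen WT replicate 2 was the highest spleen library for Lamb1 but stayed under each tumor library. Nid1, nidogen, which links laminin to type IV collagen, had tumor values from 2.44 to 3.75 and spleen values from 0.26 to 0.56 (difference 2.44). Col15a1 and Col18a1, collagens of basement membrane zones, rose by 2.04 and 1.93. In tumor Col18a1 was 3.78 ± 0.33 (SD, n = 5), and in spleen 1.85 ± 0.20 (SD, n = 6). Col15a1 was 1.71, 3.42 and 3.13 in tumor WT and 2.79 and 3.06 in tumor KO libraries, against 0.55 to 1.12 in spleen, which left tumor WT replicate 1 close to the spleen range.

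Matrix glycoproteins and elastic fibre genes rose in 9 of 9 members tested, by 1.76 to 6.44, against 43.1% of all genes tested. Fbn1 and Postn among them were tested only through tumor. Sparc, a collagen-binding glycoprotein, was between 1.21 and 1.77 (median 1.55) across the 6 spleen libraries, and 7.56, 8.39 and 8.28 in tumor WT and 7.08 and 8.41 in tumor KO libraries. Fn1, fibronectin, to which cells attach through integrins, was between 2.51 and 4.16 (median 3.15) across the 6 spleen libraries, and 8.50, 10.02 and 9.18 in tumor WT and 8.80 and 8.16 in tumor KO libraries. Fn1 had a level above 2 in each spleen library, and its highest value was that of tumor WT replicate 2. The differences were 6.44 for Sparc (standard error 0.22, adjusted p = 7.76e-11) and 5.70 for Fn1 (standard error 0.32, adjusted p = 4.73e-09, limma). Thbs1, thrombospondin 1, a glycoprotein that can activate latent TGF-beta, was between 1.74 and 3.32 (median 2.37) across the 6 spleen libraries, and 7.82, 8.58 and 8.70 in tumor WT and 8.46 and 8.51 in tumor KO libraries. Tumor WT replicate 1 was the lowest tumor library for Thbs1 and spleen WT replicate 1 the highest spleen library, with a wide gap between the tissues (difference 6.02).

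Fbn1, fibrillin 1, the backbone of the microfibrils of elastic fibres, was between 0.014 and 0.16 (median 0.045) across the 6 spleen libraries, and 5.32, 6.20 and 6.27 in tumor WT and 4.33 and 6.21 in tumor KO libraries. Spleen values were at a trace, and tumor KO replicate 1 was the lowest tumor library. It rose by 5.61 (standard error 0.30). Fbln2, fibulin 2, was between 0.71 and 1.15 (median 0.84) across the 6 spleen libraries, and 5.54, 6.92 and 6.56 in tumor WT and 5.06 and 6.46 in tumor KO libraries, a difference of 5.25. Fbln1, fibulin 1, was between 0.30 and 0.71 (median 0.46) across the 6 spleen libraries, and 2.65, 4.54 and 3.75 in tumor WT and 2.57 and 3.28 in tumor KO libraries, a difference of 2.85. For both fibulins the lowest tumor value was in tumor KO replicate 1 and the highest in tumor WT replicate 2. Postn, periostin, a matricellular protein of activated fibroblasts, was between 0.071 and 0.20 (median 0.11) across the 6 spleen libraries, and 3.87, 5.88 and 5.46 in tumor WT and 5.18 and 5.23 in tumor KO libraries. It differed from the fibulins in its lowest tumor library, which was WT replicate 1, and it rose by 5.0 (standard error 0.27).

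Fstl1, a secreted glycoprotein related to follistatin, was between 4.71 and 5.30 (median 5.17) across the 6 spleen libraries, and 6.56, 7.36 and 7.36 in tumor WT and 5.91 and 7.30 in tumor KO libraries. Both tissues thus had a clear level, with tumor KO replicate 1 nearest to spleen. The difference of 1.81 (standard error 0.24, adjusted p = 1.35e-05, limma) was lost with a Bonferroni correction over all genes. Tnc, tenascin C, a matricellular protein of wounds and tumors, was between 0.17 and 0.97 (median 0.49) across the 6 spleen libraries, and 2.24, 2.32 and 2.11 in tumor WT and 2.45 and 2.25 in tumor KO libraries. Its tumor libraries lay within a narrow range, 2.11 to 2.45, and its order differed from that of the collagens, with tumor KO replicate 1 on top. It rose by 1.75 (standard error 0.14). Eln and Thbs2 had no row.

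Bgn, biglycan, a small leucine-rich proteoglycan that binds collagen, was between 0.31 and 0.99 (median 0.68) across the 6 spleen libraries, and 8.02, 9.22 and 8.64 in tumor WT and 7.54 and 8.58 in tumor KO libraries. Tumor and spleen libraries stood far apart, by 7.73 in the means (standard error 0.25, adjusted p = 4.32e-11, limma). It was the only member of its class with a row, since Dcn (decorin) and Lum (lumican), which mark many fibroblasts, had none.

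**Figure D3:**
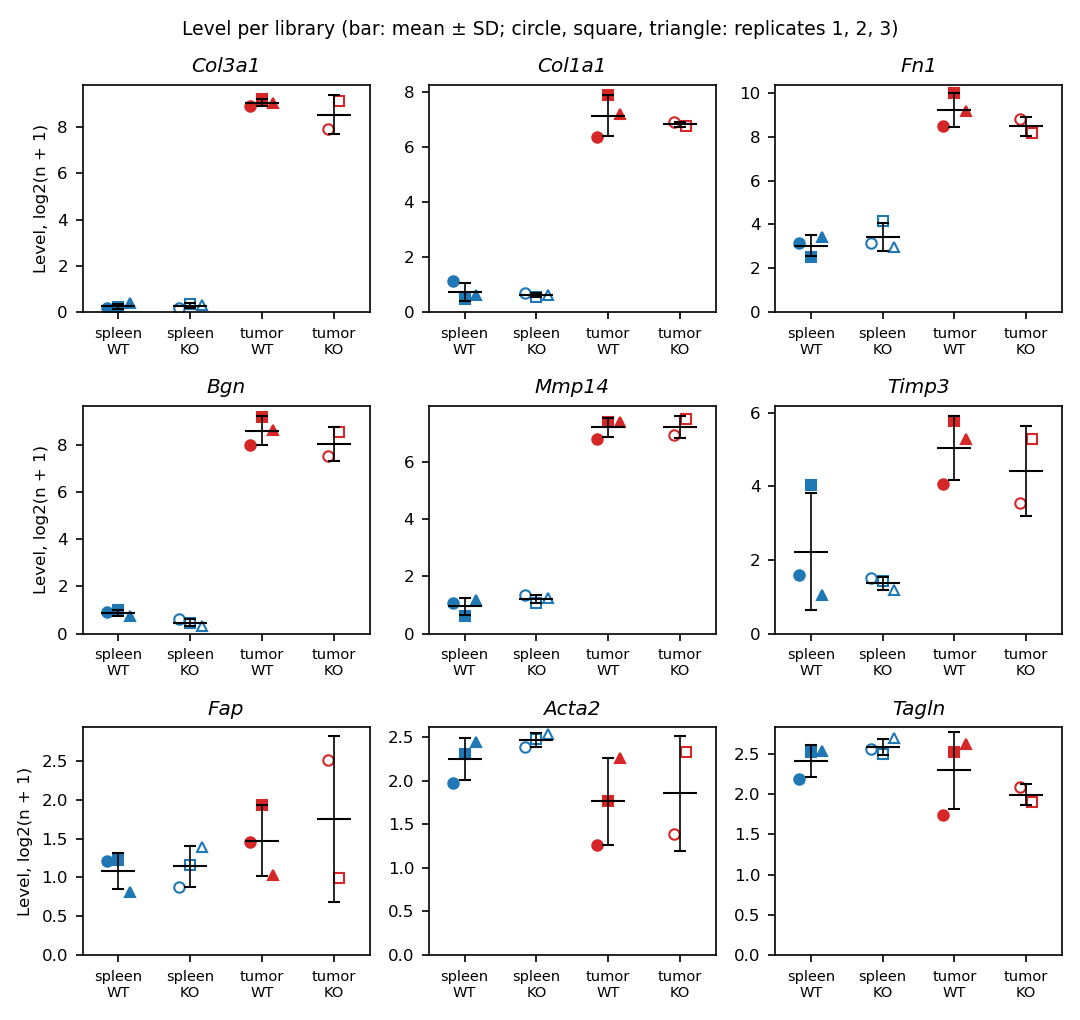
Level of 9 members in each library as log2(n + 1), by tissue and genotype, with spleen in blue, tumor in red, filled symbols for WT and open symbols for KO, and bars for the mean and SD of 3 libraries (2 in tumor KO). Each panel starts at 0 and has its own scale, and Timp3, Fap, Acta2 and Tagln are the panels in which tumor and spleen libraries overlap.

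Genes that process and crosslink collagen rose in 4 of 4 members, against 43.1% of all genes tested. Serpinh1 and Lox among them were tested only through tumor. Serpinh1, the collagen chaperone HSP47 of the endoplasmic reticulum, was between 0.059 and 0.43 (median 0.19) across the 6 spleen libraries, and 6.03, 7.14 and 6.61 in tumor WT and 5.32 and 6.59 in tumor KO libraries. Pcolce, which speeds the removal of the procollagen C-propeptide, was between 1.73 and 2.48 (median 1.94) across the 6 spleen libraries, and 6.09, 6.79 and 6.61 in tumor WT and 5.29 and 6.65 in tumor KO libraries. Serpinh1 was near 0 in spleen while Pcolce was not, and both were lowest in tumor KO replicate 1 and highest in tumor WT replicate 2. They rose by 6.12 (standard error 0.25) and 4.28 (standard error 0.25). Exons of Pcolce overlap Fbxo24 on the same strand, so some of its reads could be shared. Lox, a lysyl oxidase that starts the crosslinks, was between 0.031 and 0.11 (median 0.065) across the 6 spleen libraries, and 3.27, 4.53 and 3.66 in tumor WT and 3.77 and 3.37 in tumor KO libraries, a difference of 3.65. Its relative Loxl2 was between 1.70 and 2.02 (median 1.81) across the 6 spleen libraries, and 3.51, 4.48 and 4.40 in tumor WT and 2.88 and 4.16 in tumor KO libraries, a difference of 2.06. Lox was at a trace in each spleen library whereas Loxl2 had a level of 1.70 or more there.

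Among matrix proteases and their inhibitors, 5 of 6 members rose, against 43.1% of all genes tested. Mmp2 and Timp1 among them were tested only through tumor. Mmp2, gelatinase A, was between 0.037 and 0.15 (median 0.088) across the 6 spleen libraries, and 6.34, 6.91 and 6.91 in tumor WT and 5.24 and 6.84 in tumor KO libraries. Mmp14, the membrane metalloproteinase that activates pro-MMP2, was between 0.62 and 1.35 (median 1.12) across the 6 spleen libraries, and 6.83, 7.42 and 7.43 in tumor WT and 6.95 and 7.51 in tumor KO libraries. The spleen libraries held a trace of Mmp2 and a low level of Mmp14, and only Mmp2 was much lower in tumor KO replicate 1 than in the other tumor libraries. Mmp2 rose by 6.36 (standard error 0.25, adjusted p = 2.26e-10) and Mmp14 by 6.14 (standard error 0.15, adjusted p = 9.84e-12, limma). The inhibitor Timp1 was between 0.15 and 0.52 (median 0.24) across the 6 spleen libraries, and 4.74, 6.41 and 5.89 in tumor WT and 5.20 and 5.42 in tumor KO libraries, a difference of 5.25. Timp2, which also takes part in the activation of pro-MMP2, was between 4.28 and 4.77 (median 4.45) across the 6 spleen libraries, and 7.86, 8.74 and 8.39 in tumor WT and 7.59 and 8.22 in tumor KO libraries, a difference of 3.66. Timp2 had a clear level in spleen and Timp1 did not, and neither overlapped between tissues.

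Timp3, an inhibitor that stays bound to the matrix, was 1.52, 1.41 and 1.17 in the spleen KO libraries and 1.58, 4.03 and 1.06 in the spleen WT libraries. In tumor it was 4.07, 5.77 and 5.29 in the WT and 3.55 and 5.28 in the KO libraries. Spleen WT replicate 2 thus lay above tumor KO replicate 1, and with it the tissues overlapped. Timp3 rose by 3.0 (standard error 0.54, limma adjusted p = 1.90e-04, exact two-sided permutation test, p = 0.0087), and the difference was 3.44 without spleen WT replicate 2. The call was lost with a Bonferroni correction over all genes. Exons of Timp3 overlap those of Syn3 on the opposite strand.

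Fap, fibroblast activation protein, a serine protease of activated fibroblasts, was between 0.82 and 1.40 (median 1.18) across the 6 spleen libraries, and 1.46, 1.94 and 1.03 in tumor WT and 2.51 and 0.99 in tumor KO libraries. Tumor KO replicate 1, the lowest tumor library for many collagens, was the highest for Fap, and 2 tumor libraries lay inside the spleen range. The difference of 0.47 (standard error 0.25) did not pass the threshold (adjusted p = 0.096 from limma, exact two-sided permutation test p = 0.14). Without tumor KO replicate 2 it was 0.62 (adjusted p = 0.036, limma) and without tumor WT replicate 3 it was 0.61 (adjusted p = 0.04, limma). With equal library totals it was 0.11 (adjusted p = 0.7, limma).

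Pdgfrb, the PDGF receptor of pericytes and fibroblasts, rose, and both contractile genes did not. Pdgfrb was between 0.060 and 0.16 (median 0.13) across the 6 spleen libraries, and 2.76, 3.47 and 3.31 in tumor WT and 2.07 and 3.17 in tumor KO libraries, a difference of 2.83 (standard error 0.21, adjusted p = 4.52e-08, limma). Each spleen library held a trace only. Acta2, the smooth muscle actin of myofibroblasts and pericytes, was between 1.98 and 2.54 (median 2.42) across the 6 spleen libraries, and 1.26, 1.77 and 2.26 in tumor WT and 1.39 and 2.33 in tumor KO libraries. Its tumor libraries spread widely, and 2 of them, WT replicate 3 and KO replicate 2, lay inside the spleen range. It fell by 0.55 (standard error 0.20, adjusted p = 0.02 from limma, exact two-sided permutation test p = 0.039). The call was lost with a Bonferroni correction, with a minimum difference of 1, without tumor KO replicate 1 (-0.45, adjusted p = 0.054), without tumor WT replicate 1 (-0.42, adjusted p = 0.055) and with array weights (-0.37, adjusted p = 0.066, limma). With equal library totals the difference was -1.02 (adjusted p = 1.52e-04, limma).

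Tagln, transgelin, an actin-binding protein of smooth muscle, was between 2.19 and 2.69 (median 2.53) across the 6 spleen libraries, and 1.75, 2.52 and 2.62 in tumor WT and 2.09 and 1.90 in tumor KO libraries. The tissues overlapped, and the difference of -0.33 (standard error 0.16) did not pass (adjusted p = 0.082 from limma, exact two-sided permutation test p = 0.095). It passed as lower with equal library totals (-0.82, adjusted p = 2.88e-04), with median centring (-0.54, adjusted p = 0.0064) and with quantile normalization (-0.54, adjusted p = 0.0053, limma). It also passed without spleen WT replicate 1 (-0.39), without tumor WT replicate 2 (-0.41) and without tumor WT replicate 3 (-0.44). With genotypes pooled, the differences of Acta2 and Tagln were below 0 under every alternative run, and the fourth gene of this group, Pdgfra, a receptor used to mark fibroblasts, had no row.

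The comparison within each genotype asked whether the members differed between tissues with and without CD177 in Tregs. In WT mice 33 members rose and 0 fell, 91.7% against 70.5% of all genes tested, with a median difference of 4.02. In KO mice 33 rose and 0 fell, 91.7% against 65.7%, with a median of 3.86 (limma, adjusted p below 0.05). The shares and medians of both genotypes include the 14 members tested only through tumor, so they are no support for the group. Acta2, Tagln and Fap were the members not called in either genotype. The 2 contrasts share an estimate of the spread but no libraries. Col3a1 rose by 8.79 in WT and 8.25 in KO, Bgn by 7.74 and 7.61, Col1a2 by 5.53 and 5.51, and Pcolce by 4.22 and 4.22. Fn1 had the widest gap between genotypes, 6.21 in WT against 5.05 in KO.

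**Figure D4:**
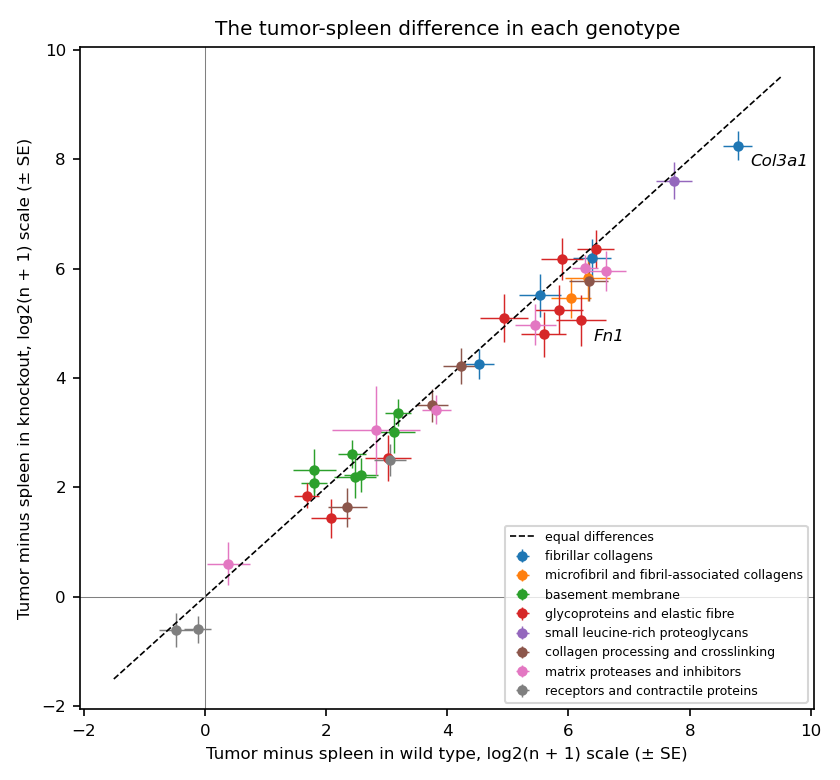
Tumor minus spleen of each of the 36 members in WT mice (horizontal axis) and in KO mice (vertical axis), on the log2(n + 1) scale with standard errors from limma and a dashed line of equal differences. The points lie along the line, with Fn1 at 6.21 and 5.05 farthest below it.

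The interaction of tissue and genotype was called for 0 of 36 members by limma, and 0 members had an unadjusted p below 0.05, against 0% and 2.76% of all genes tested. The smallest adjusted p of a member was 0.9997. For Fn1 the interaction, KO minus WT, was -1.15 (standard error 0.62). For 27 members the difference was larger in WT, and the median interaction of the members was -0.26. This direction turned without tumor KO replicate 1, when the median was 0.10 and 13 members were larger in WT, and it was -0.0016 without tumor WT replicate 2.

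Within tumor, KO and WT libraries were compared for the effect of deleting CD177. No member was called (0 of 36, and 0 with an unadjusted p below 0.05, limma), against 0.0072% and 4.56% of all genes tested. The median difference, KO minus WT, was -0.40 for the members and -0.012 for all genes, and 27 members were lower in KO. Col3a1 was 9.05 ± 0.16 (SD, n = 3) in WT and 8.53 ± 0.85 (SD, n = 2) in KO tumor libraries, a difference of -0.52 (standard error 0.27). Mmp2 differed by -0.68 (standard error 0.36), Fn1 by -0.76 (standard error 0.46), and Mmp14 by 0.0071 (standard error 0.24). With 2 KO libraries, 1 of them decided the direction. Without tumor KO replicate 1 the median was 0.11 and 13 members were lower in KO, without tumor KO replicate 2 it was -0.78, and without tumor WT replicate 2 it was -0.18. Without tumor WT replicate 1 it was -0.67. Within spleen, 0 of 36 members were called by limma, and 0 had an unadjusted p below 0.05, against 0% and 2.02% of all genes, and the median difference of the members was -0.045.

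Many members ranked the tumor libraries alike. Tumor WT replicate 2 was the highest of the 5 for 24 of 36 members and the lowest for 0. Tumor KO replicate 1 was the lowest for 20, and tumor WT replicate 1 was the lowest for 12 and the highest for 0. Of all 13897 genes tested, WT replicate 2 was the highest for 3617. KO replicate 1 was the lowest for 3531 of them and WT replicate 1 for 3484. The median deviations of the members from the mean of the 5 tumor libraries were 0.54 for WT replicate 2, 0.28 for WT replicate 3, 0.24 for KO replicate 2, -0.38 for WT replicate 1 and -0.62 for KO replicate 1. For all genes tested these medians had the same signs and lay between -0.036 and 0.027. The 12 members lowest in WT replicate 1 included Col1a1, Col1a2, Postn, Lox and Timp1, while the 20 lowest in KO replicate 1 included Col3a1, Col6a2, Fbn1, Mmp2 and Bgn, so not every member had the same library at the bottom.

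**Figure D5:**
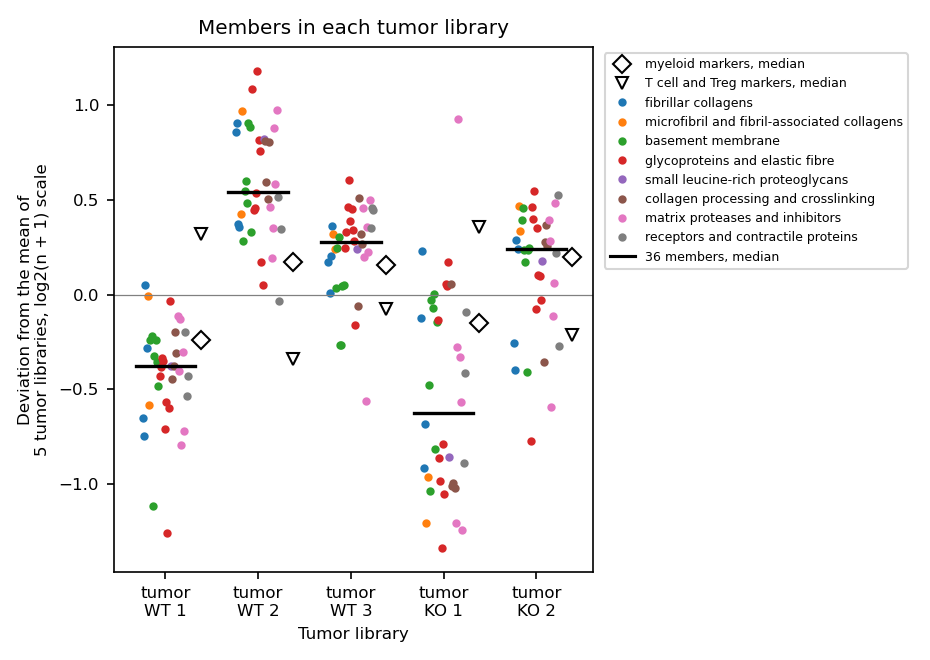
Deviation of each of the 36 members from its mean over the 5 tumor libraries, on the log2(n + 1) scale, colored by role, with the median as a bar and the medians of the myeloid and the T cell and Treg marker lists as open symbols. WT replicate 2 lies at 0.54 and KO replicate 1 at -0.62 for the members, and the T cell and Treg markers lie on the opposite side of 0 from the members in each of the 5 libraries.

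Markers of myeloid cells rose in the same tumor libraries, while the other marker lists moved less or in both directions. Of 15 myeloid markers, 15 rose, by a median of 5.23, and their summed n was 189 to 449 in spleen libraries and 12190 to 18430 in tumor libraries. Lyz2, a lysozyme of macrophages and neutrophils, was at 4.75 in spleen and 12.35 in tumor (means). Arg1 rose by 8.74 and Cd14 by 8.19. Among the tumor libraries this sum was lowest in WT replicate 1 (12190) and KO replicate 1 (13750), the same libraries in which the members were low, and highest in WT replicate 2 (18430). Fibroblast markers outside the 45 genes had median deviations of -0.22 in KO replicate 1, -0.093 in WT replicate 1 and 0.62 in WT replicate 2. In KO replicate 2 and WT replicate 3 these were -0.021 and -0.017, where the members stood at 0.24 and 0.28. Of the 8 fibroblast markers, 4 were lowest in WT replicate 1, 3 in KO replicate 2 and 1 in KO replicate 1. Their summed n, with Thy1, was lowest in KO replicate 2 (164). The platelet sum, most of it Pf4, was lowest in WT replicate 1 (233) and KO replicate 1 (307). The epithelial sum was highest in KO replicate 1 (32.4). The T cell and Treg list held 12 genes, of which 2 rose (Tnfrsf18 and Ctla4), 7 fell and 3 did not pass, with a median of -0.41 and a summed n of 2280 to 2549 in spleen and 1613 to 2488 in tumor. Ctla4, an inhibitory receptor, was higher by 0.57 as deposited, but the difference was -0.29 after quantile normalization and -0.056 with equal library totals. The sum of the list was highest in KO replicate 1 (2488) and WT replicate 1 (2474) and lowest in WT replicate 2 (1613). Of the genes of the sort, Foxp3 was 6.35 in spleen and 5.50 in tumor, Cd4 was 7.72 and 7.30, Il2ra (CD25) was 7.26 and 7.0, and Tnfrsf18 (GITR) was 6.43 and 7.51. These genes had a clear level in both tissues. Foxp3 (-0.85) and Cd4 (-0.42) were called lower in tumor and Tnfrsf18 higher (1.08), while Il2ra did not pass (-0.27). The part of myeloid cells or of the share of T cells in the members' differences was not tested.

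Of 14 fibroblast markers outside the 45 genes, 8 had a row, 7 were tested and 6 rose. Prrx1, a transcription factor of mesenchymal cells, rose by 3.77, Mfap5 by 3.23 and Cxcl12 by 2.98. Thy1, which is also a T cell gene, was 7.50 in spleen and 7.52 in tumor. With Thy1 included, the summed n of this list was 171 to 192 in spleen and 164 to 306 in tumor, so the sum did not separate the tissues. Lrrc15, a gene of myofibroblasts in tumors, was near 0 in both tissues (0.095 and 0.49), and Dpt, Twist1, Twist2, Clec3b, Pdpn and Meox2 had no row. Against the label of fibroblast genes, then, Fap did not pass, and Pdgfra, Dcn and Lum could not be assessed.

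Of 11 pericyte and smooth muscle markers, 4 had a row, with a summed n of 1.87 to 3.38 in spleen and 5.29 to 16.3 in tumor. Cspg4 rose by 3.04, Mcam did not pass (-0.32), and Notch3 (0.47) and Abcc9 (0.28) were near 0 in tumor. The defining markers Rgs5, Des, Myh11, Cnn1, Myl9, Higd1b and Kcnj8 had no row. Of 14 endothelial markers, 9 had a row, 4 rose and 3 fell, and their summed n was 78 to 92.7 in spleen and 32.8 to 44.1 in tumor. Flt1 rose by 2.51 and Cdh5 by 0.98, while Pecam1 fell (-1.72) and so did Vwf (-1.07). Of 11 tumor epithelial markers, 6 had a row and 5 were tested, of which Cdh1 rose by 3.32 and Vil1 and Lgals4 fell (-0.51 and -0.94). Their summed n was 10.3 to 19.5 in spleen and 18.2 to 32.4 in tumor, Epcam was 1.81 and 1.62, Krt18 was 0.25 and 0.36, and Krt8, Krt19 and Krt20 had no row. Among the tumor libraries the epithelial sum was highest in KO replicate 1 (32.4), the library in which the most members were lowest. Of 8 platelet markers, 6 had a row, 4 fell and 1, Pf4, rose by 6.34, with a summed n of 27.4 to 58.7 in spleen and 233 to 621 in tumor. Pf4, at a mean of 8.69 in tumor, made up most of the tumor sum, and each other listed platelet marker had a lower mean in tumor than in spleen. The part of these cell types in the members' differences was not tested.

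The wider matrix pathway was described by 102 further genes, of which 83 had a row and were tested. Of these, 75 rose and 3 fell, with a median difference of 2.01, while 78.9% of all genes tested were called, 43.1% higher and 35.9% lower. Some of the 83, among them Hspg2, Vcan, Bmp1 and Pdgfa (0.14, 0.28, 0.17 and 0.47), had a spleen mean under 0.5. Such genes passed the filter only through tumor. The counts here and for each list below include them and are no support for the pathway. Among other structural genes, 24 of 27 rose, with Tgfbi (6.61), Hspg2, the basement membrane proteoglycan perlecan (4.71), and Vcan, versican (4.44), ahead. The latent TGF-beta binding protein Ltbp1 fell (-1.56), from 6.80 in spleen to 5.23 in tumor, and so did Col27a1 (-0.63). Of the enzymes and chaperones of collagen synthesis, 19 of 20 rose and 0 fell, among them the procollagen C-proteinase Bmp1 (3.48), the prolyl isomerase Fkbp10 (2.90) and the lysyl hydroxylase Plod2 (2.88). Serpinh1, Pcolce and Lox of the members act in the same steps.

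Other matrix proteases and regulators rose in 13 of 13 tested, led by the urokinase Plau (6.41), its receptor Plaur (6.07) and the macrophage metalloelastase Mmp12 (5.84). Of matrix receptors, 13 of 16 rose, with Sdc4, a syndecan (4.90), Itga5, a subunit of the fibronectin receptor (3.98), and Lair1, a collagen receptor of leukocytes (3.89), ahead. Itga6, a subunit of laminin receptors, fell (-1.62). Of 7 PDGF and TGF-beta ligands and targets tested, 6 rose, Pdgfa by 4.26, Pdgfb by 3.62 and Pdgfc by 3.25. Pdgfb encodes the main ligand of Pdgfrb, which rose by 2.83.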

How the data were processed

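RNA-seq of 11 mouse Treg libraries was analysed from 1 deposited table. Per the labels and the methods of the study, cells were sorted by flow cytometry, ribosomal RNA was depleted and single 75-base reads were sequenced on an Illumina NextSeq. The submitters' processing notes name kallisto (version not given in the sources used here), sleuth 0.30.0 and the mouse build mm10. The authors deposited log2 values, log2(n + 1), where n is an estimated count summed by gene symbol on a scale that is not stated, so no count model was fitted and no counting interval can be given. Kallisto assigns reads to transcripts by their sequence, and reads of overlapping genes may be shared between them.

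Libraries were grouped by tissue and genotype from their labels. The deposited values were used without further scaling. A minimum mean level of 0.5 on the log2(n + 1) scale removed 707 of 14604 genes and left 13897 for testing. The tumor libraries (5) were set against the spleen libraries (6) with genotypes pooled, as the study did, in limma 3.58.1 under R 4.3.3, with eBayes and its trend option. A second model, in which tissue and genotype together defined 4 group means, gave the difference within each genotype, the interaction, and KO against WT in each tissue. A gene was called when its p, adjusted over all genes tested by the Benjamini-Hochberg method, was below 0.05. Exact two-sided permutation tests of single genes exchanged the tissue labels among the 11 libraries in every possible way. The fit was tested on simulated data with known differences before use.

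The 45 members and the companion and marker lists were chosen with earlier results of these data known. The text names every member, from each other list up to 3 called genes with the largest rise and up to 2 with the largest fall, markers near 0 and the genes of the sort. Beyond that rule, Thy1, Mcam, Epcam and Krt18 were named after their values were seen. Counts of members are given beside those over all genes, with no test of the lists. Positions are from GENCODE release M21 on GRCm38, the assembly of mm10. Python 3.11.15 with pandas 2.3.3, scipy 1.17.1 and matplotlib 3.10.9 made the summaries and plots. Alternatives covered the scaling, pseudocount, filter, variance model, correction, size of the difference, genotype as a covariate, a replicate block and leaving out each library.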

Additional observations from a re-analysis of the deposited data

Results flagged for a closer look

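For 9 of 72 groups, each 1 member in 1 tissue, a single library stood apart from the others by Dixon's criterion at the 95% level, where chance gives about 1 in 20, or 3.6 groups. In spleen, Col1a1 was 1.11 in WT replicate 1 against 0.49 to 0.68 in the other 5 libraries, and Col5a1 was 0.42 in the same library against 0.076 to 0.13. Col6a2 was 0.28 in spleen WT replicate 3 against 0.17 to 0.19, and Fbln2 was 1.15 in spleen KO replicate 3 against 0.71 to 0.87. Lamb1 was 2.35 in spleen WT replicate 2 against 1.53 to 1.68, and Timp3 was 4.03 in that library against 1.06 to 1.58. In tumor, Col3a1 was 7.93 in KO replicate 1 against 8.89 to 9.21 in the other 4 libraries, and Col6a2 was 4.80 in it against 6.0 to 6.47. Thbs1 was 7.82 in tumor WT replicate 1 against 8.46 to 8.70. All values are levels on the log2(n + 1) scale, and of these only Timp3 overlapped between tissues.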

How the results depend on the processing

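The count of members called for tumor against spleen, 34 of 36, stayed between 33 and 36 when each library was left out in turn, between 33 and 34 in WT and between 33 and 34 in KO. It was 26 of the 27 members left by a filter at a mean of 2, and 31 with a Bonferroni correction (25 in WT, 22 in KO). Over all genes, 10616 to 10981 were called with genotypes pooled when each library was left out. The filter at a mean of 2 gave 8617 of 10717. The Bonferroni correction gave 5051 of 13897 (2449 in WT, 1857 in KO). The counts of members include those tested only through tumor. For KO against WT in either tissue and for the interaction, the count was 0 under every alternative run. The median member difference depended on the pseudocount, from 5.72 with 0.1 to 2.70 with 5. Of 24 alternatives, all applied to 27 members and 23 to the 9 that the filter at a mean of 2 left out, and over those that applied 31 of 36 members kept their direction and their call, while the exceptions were Acta2, Fap, Fstl1, Tagln and Timp3. Of the 5, Fstl1 and Timp3 were lost with the Bonferroni correction alone. Of the 83 further matrix genes, 78 were called, 74 to 79 when each library was left out, 52 of the 55 left by a filter at a mean of 2, and 57 with the Bonferroni correction. The counts over all genes under these settings, with genotypes pooled, are those given above. Among 43 other named genes, 32 kept their direction and call wherever they were tested, and the exceptions were Cd4, Cdh5, Col27a1, Ctla4, Foxp3, Ikzf2, Il2ra, Kdr, Lgals4, Ppbp and Vil1. Ctla4, which was higher in tumor by 0.57 as deposited, turned to -0.29 after quantile normalization and -0.056 with equal library totals, and the cause was not tested.

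The labels number the libraries within each genotype and do not say whether a number marks 1 mouse in both tissues. The deviations of same-numbered spleen and tumor libraries correlated at -0.128 to 0.0375 over the genes tested. Deviations from the mean of 2 or 3 libraries sum to 0, so these values can hardly decide whether the numbers pair the libraries. The main model left them unpaired. With the replicate block, 34 members were called with genotypes pooled, 33 in WT, 33 in KO and 0 in the interaction and in both genotype comparisons, and 76 of the further matrix genes were called. For KO against WT the block was the replicate number alone, which joins libraries of different mice. That block has no known meaning there, so its count adds nothing. The depth in reads is unknown, and for the 14 members with a spleen mean under 0.5 the size of a fold change could not be given.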
